A study of Mus musculus with 8 samples.

Results

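Agrp, Npy and Otp are expressed in the feeding-promoting AgRP neurons of the hypothalamus, Npy and Otp also in other neurons. These 3 genes were followed by name through RNA sequencing libraries of the mouse arcuate nucleus. They are 3 of the 13130 genes listed in the tables of both manipulations, and the matching transcript tables list 5 isoforms of them. The libraries fall into 4 groups of 2, all from C57BL/6 mice aged 4 months, and each library was made from the pooled tissue of 2 mice. The knockout males carried Pomc-Cre;miR-17-92flox/flox, which removes the miR-17-92 cluster of microRNAs from cells that have made the Cre recombinase. Their comparison group was wild type males. The sponge females carried Pomc-Cre;miR-7-sponge, a transcript with binding sites that hold miR-7 away from its targets, and their comparison group was wild type females. The wild type females were also set against the wild type males, so each wild type library serves in more than 1 comparison. Wild type mice are described as littermates and not as carriers of Cre alone, so an effect of the Cre driver cannot be told apart from that of the deletion or the sponge. Each manipulation was made in a single sex, so sex and manipulation cannot be told apart between them either. The study asked how the microRNAs act in POMC neurons; the values below come from whole arcuate tissue, in which fewer cells of a type and less RNA per cell cannot be told apart.

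AgRP neurons release agouti-related peptide, neuropeptide Y and GABA, and they drive feeding when energy stores are low. Agouti-related peptide blocks the melanocortin receptors that peptides from the neighbouring POMC neurons activate, while neuropeptide Y acts on receptors of its own. Some AgRP neurons descend from precursors that once expressed Pomc, so a Pomc-Cre driver can reach part of them. Otp encodes the homeodomain protein orthopedia, which is needed for several classes of hypothalamic neurosecretory neurons to form and is found in AgRP neurons of the adult.

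The microRNAs that were manipulated are printed here because their seeds define which messengers they could pair with. The sequences are those of RefSeq on GRCm38.p6, written 5′ to 3′, with the seed, the bases that pair with a target first, in capitals. The cluster holds 4 different seeds on chromosome 14, and the 2 mature miR-7 forms share another.
miR-17-5p: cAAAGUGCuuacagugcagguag
miR-20a-5p: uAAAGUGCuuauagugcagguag
miR-18a-5p: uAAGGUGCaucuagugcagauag
miR-19a-3p: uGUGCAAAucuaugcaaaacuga
miR-19b-3p: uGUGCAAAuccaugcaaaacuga
miR-92a-3p: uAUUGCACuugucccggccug
miR-7a-5p: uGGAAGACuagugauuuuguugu
miR-7b-5p: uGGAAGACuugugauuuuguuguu

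For every gene, the transcribed strand of its longest annotated 3′ UTR was searched for the reverse complement of each seed. GCACTTT, which pairs with miR-17 and miR-20a, is present in 14.9% of 13284 genes, GCACCTT for miR-18a in 9.39%, TTTGCAC for miR-19 in 13.9%, GTGCAAT for miR-92a in 7.95% and GTCTTCC for miR-7 in 14.1%. The searched UTRs are 58 bases long for Agrp, 180 bases for Npy and 1510 bases for Otp, and they held 0 matches to any of the 5 motifs. The shares are over UTRs of any length, so they give no yardstick for windows as short as those of Agrp and Npy. Only these full motifs were searched. The result says only that these letters are not in those windows.

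The deposited tables place Agrp (ENSMUSG00000005705.10) on the minus strand of chromosome 8 from 105566698 to 105637393, on the mouse build GRCm38 (mm10). Npy (ENSMUSG00000029819.6) is on the plus strand of chromosome 6 from 49822710 to 49829507. Otp (ENSMUSG00000021685.11) is on the plus strand of chromosome 13 from 94875602 to 94885130. Levels are in FPKM, in which the number of sequenced fragments is divided by transcript length and by the size of the library. Gene values are divided by the length of all exons joined, so levels of different genes compare only approximately. For Agrp this is 1013 bases, against 734 in Agrp-002, the isoform listed in every comparison.

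Npy had the highest level of the 3 genes in all 8 libraries and Otp the lowest. Npy ranged from 38.2 to 83.1 FPKM with a median of 72.0, which placed it above 95.0% to 98.4% of the 13130 genes in a library. Agrp ranged from 14.6 to 28.3 FPKM with a median of 20.1, above 82.5% to 93.1% of the genes. Otp ranged from 3.77 to 15.4 FPKM with a median of 7.97, above 42.8% to 83.2% of the genes. The highest and lowest libraries differed 1.94-fold for Agrp, 2.18-fold for Npy and 4.08-fold for Otp, so the transcription factor gene varied most among the libraries and Agrp least. Other peptides of the arcuate nucleus were present as well: the 7 genes Pomc, Cartpt, Tac2, Kiss1, Pdyn, Ghrh and Gal were above 0 in every library. Over the shared genes FPKM summed to between 141356 and 152351 per library, and 104 to 135 genes were listed at 0. Library pairs of the same group had a median correlation of 0.906 across genes (4 pairs) and pairs from different groups 0.909 (24 pairs), so the libraries of a group were no more alike than libraries of different groups. Wild type female replicate 2 stood apart in the summed FPKM of 3 choroid plexus genes, at 529 against 8.35 to 45.4 in the other 7 libraries; most of it was Ttr, the transthyretin gene, at 510 FPKM. Knockout male replicate 1 stood apart in the pituitary genes Gh, Prl and Cga. Their summed FPKM was 336 there, against 5.23 to 69.4 in the other 7 libraries. The part of these tissues in the values below was not tested. Log2 fold changes of Agrp, Npy and Otp in comparisons that use wild type female replicate 2 are also given without it. Ratios, correlations, isoforms and gene lists are not.

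**Figure D1:**
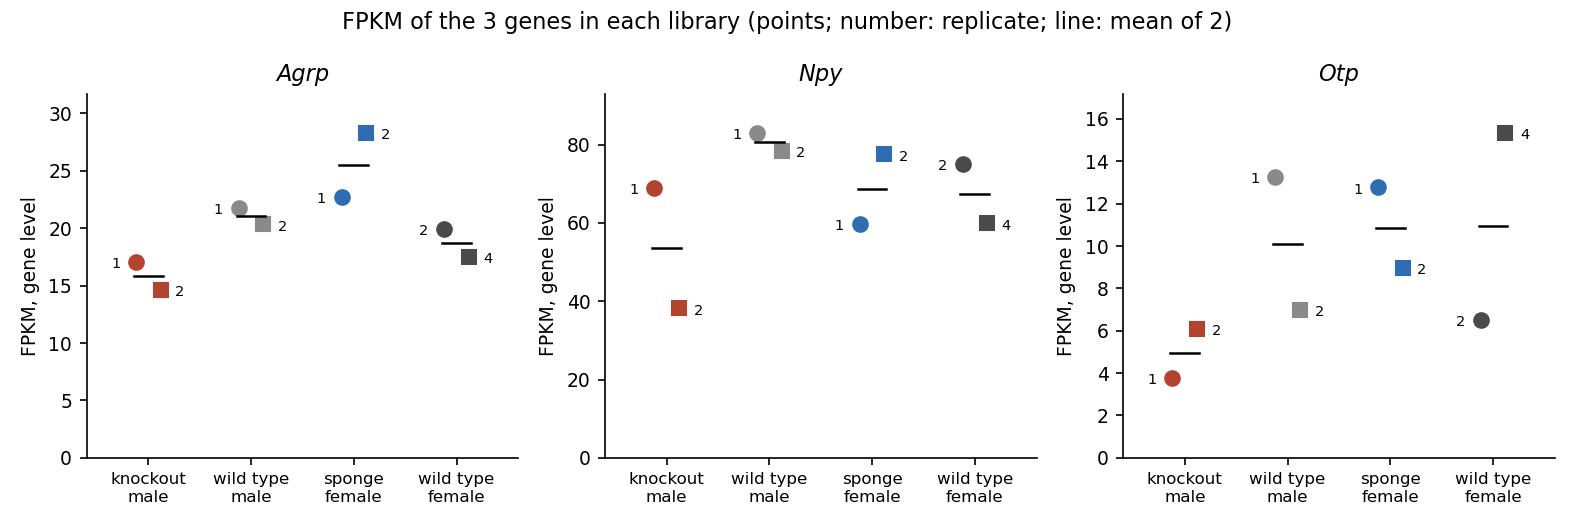
FPKM of Agrp, Npy and Otp (vertical axes, from 0) in the 8 libraries, grouped along the horizontal axis as knockout males, wild type males, sponge females and wild type females. Each point is a library, numbered by its replicate, and each short line is the mean of the 2 libraries of a group; all 3 genes are lower in both knockout libraries than in both wild type male libraries.

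In the knockout males all 3 genes lay below the wild type males, and none of the differences passed the test. Agrp, whose product blocks melanocortin receptors, was at 17.0 and 14.6 FPKM in the knockout libraries, against 21.7 and 20.3 FPKM in wild type males. Npy, the gene of neuropeptide Y, was at 69.0 and 38.2 FPKM in the knockout libraries, against 83.1 and 78.4 FPKM in wild type males. Otp was at 3.77 and 6.10 FPKM in the knockout libraries, against 13.2 and 6.97 FPKM in wild type males. For each gene both knockout libraries were thus under both wild type libraries. For Npy the distance came mainly from the second knockout library, and for Otp the nearest libraries of the groups, 6.10 and 6.97 FPKM, almost met. Group means were 15.8 ± 1.72 and 21.0 ± 0.997 FPKM for Agrp, 53.6 ± 21.8 and 80.7 ± 3.34 FPKM for Npy, and 4.93 ± 1.65 and 10.1 ± 4.44 FPKM for Otp, in knockout males and wild type males (SD, n = 2 each). Of all 13155 genes tested in this comparison, 16% had both knockout libraries below both wild type libraries and 22.5% had both above.

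Differences were tested with limma, a linear model with a shared estimate of the spread, on log2(FPKM + 1), so the fold changes understate those of weakly expressed genes. A gene was called at an adjusted p under 0.05 (Benjamini-Hochberg over all genes tested). The log2 fold change in knockout males was -0.39 ± 0.19 for Agrp (standard error, 95% interval -0.89 to 0.11), -0.64 ± 0.33 for Npy (-1.52 to 0.23) and -0.87 ± 0.38 for Otp (-1.88 to 0.13). As folds these are 0.762, 0.641 and 0.546. The limma p before adjustment was 0.0966 for Agrp, 0.116 for Npy and 0.0749 for Otp, and the adjusted p was 0.792 for each. None of the 3 genes was among the 8 called, 0.0608% of those tested, or among the 701 genes (5.33%) with an unadjusted p under 0.05. A more negative log2 fold change was found for 11.8% of all genes in the case of Agrp, 5.12% in that of Npy and 2.97% in that of Otp; the median over all genes was 0.03. The authors' deposited table gives p-values of 0.0753 for Agrp, 0.267 for Npy and 0.228 for Otp, with q-values of 0.800, 0.842 and 0.842.

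These sizes rest on few libraries. Without the second knockout library the log2 fold change of Npy was -0.22, and without the first it was -1.06. That of Otp was -0.45 without the first wild type male library and -1.29 without the second, and for Agrp the values with any of the 4 libraries left out lay between -0.50 and -0.29. Marker genes of other tissues also moved with the groups. The summed FPKM of 7 meningeal genes was 242 to 356 in the knockout libraries and 79.7 to 88.5 in wild type males. Of these genes 7 of 7 were higher on average and 6 of them higher in both knockout libraries (22.5% of all genes). The summed FPKM of 5 genes of the paraventricular nucleus, where Otp is also expressed (Sim1, Avp, Oxt, Trh and Crh), was 121 to 333 in the knockout libraries and 349 to 401 in wild type males. Of these 5, 4 were lower on average (46.1% of all genes), but only 2 (Oxt and Trh) were lower in both knockout libraries (16% of all genes). Sim1 was higher on average. For 6 pan-neuronal genes the sum was 288 to 324 FPKM in the knockout libraries and 259 to 336 FPKM in wild type males. The level of GC-rich against GC-poor genes differed between these groups as well. GC-rich were 2875 genes other than Otp with at least 55.1% GC, and GC-poor were 2876 genes with at most 45.5%. The median log2(FPKM + 1) of GC-rich genes minus that of GC-poor genes was -0.05 and -0.04 in the knockout libraries. It was 0.46 and 0.17 in wild type males. The transcripts of Agrp, Npy and Otp have 57.2%, 53.7% and 58.2% GC, so that of Npy is under the GC-rich limit. The part of these tissues and of GC content in the lower Agrp, Npy and Otp values was not tested.

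**Figure D2:**
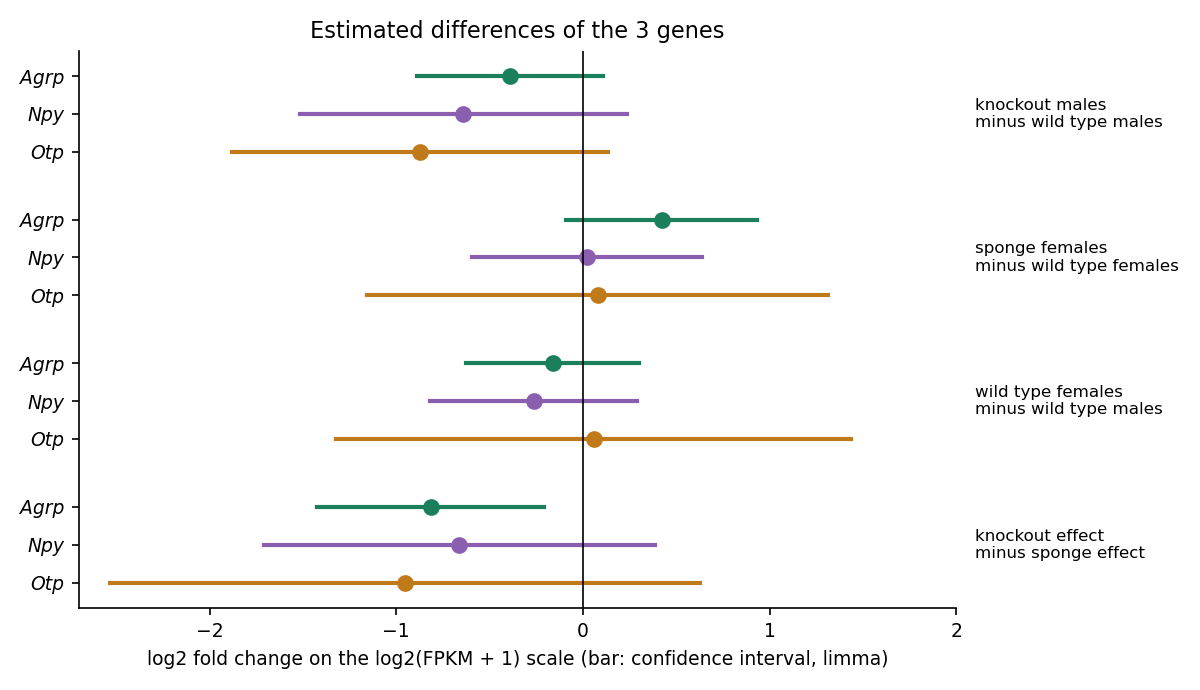
Log2 fold change on the log2(FPKM + 1) scale (horizontal axis) of Agrp, Npy and Otp in knockout males against wild type males, sponge females against wild type females, wild type females against wild type males, and for the knockout effect minus the sponge effect. Points are limma estimates and bars their 95% intervals; all 9 intervals of the group comparisons include 0. The contrast between the effects was chosen with the opposite signs of Agrp known.

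In the sponge females Agrp lay above the wild type females, while Npy and Otp overlapped between the groups. Agrp was at 22.7 and 28.3 FPKM in the sponge libraries, against 20.0 and 17.5 FPKM in wild type females. Both sponge libraries were therefore above both wild type libraries, which held for 12.1% of the 13157 genes tested; for 18.8% both were below. Npy was at 59.8 and 77.5 FPKM in the sponge libraries, against 75.1 and 59.9 FPKM in wild type females. Otp was at 12.8 and 8.98 FPKM in the sponge libraries, against 6.52 and 15.4 FPKM in wild type females. For both genes the spread inside a group was wider than the distance between the group means, which were 68.7 ± 12.5 and 67.5 ± 10.7 FPKM for Npy and 10.9 ± 2.68 and 10.9 ± 6.25 FPKM for Otp, in sponge and wild type females (SD, n = 2 each). For Agrp the means were 25.5 ± 3.98 FPKM in sponge females and 18.7 ± 1.74 FPKM in wild type females.

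The log2 fold change in sponge females was 0.42 ± 0.19 for Agrp (95% interval -0.09 to 0.93), 0.02 ± 0.22 for Npy (-0.59 to 0.64) and 0.08 ± 0.45 for Otp (-1.15 to 1.31). The limma p before adjustment was 0.0839 for Agrp, 0.926 for Npy and 0.867 for Otp, and the adjusted p was 1 for each. None of the 3 genes was among the 14 called (0.106%) or among the 495 (3.76%) with an unadjusted p under 0.05. As folds the interval runs from 0.449 to 2.49 for Otp and from 0.663 to 1.56 for Npy. The authors' deposited table gives a p-value of 0.141 and a q-value of 0.972 for Agrp. Without the second sponge library the log2 fold change of Agrp was 0.27, and without the first 0.58. Without wild type female replicate 2 it was 0.51 for Agrp, 0.18 for Npy and -0.48 for Otp. The summed FPKM of the 7 meningeal genes was 75.2 to 249.8 in the sponge libraries and 73.3 to 98.3 in wild type females, and that of the pan-neuronal genes 285 to 289 in the sponge libraries and 294 to 326 in wild type females. The sum of 3 genes of the ventromedial nucleus, which borders the arcuate nucleus, was 7.47 to 10.7 FPKM in the sponge libraries and 14.2 to 15.0 FPKM in wild type females. The sum of 5 oligodendrocyte genes was 84.8 to 94.0 FPKM in the sponge libraries and 113.9 to 133.2 FPKM in wild type females. Of these genes 5 of 5 were lower on average (56% of all genes) and 4 of them lower in both sponge libraries (18.8% of all genes). The sum of Pmch and Hcrt, 2 peptide genes of the lateral hypothalamus, was 210 to 236 FPKM in the sponge libraries and 240 to 398 FPKM in wild type females, and both genes lay below in both libraries. The median of GC-rich genes minus that of GC-poor genes overlapped, at 0.16 and -0.07 in the sponge libraries against 0.12 and 0.13 in wild type females. The part of these cell types and of GC content in the Agrp values was not tested.

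The effects of the manipulations were set against each other in a fit over all 8 libraries. The opposite signs of the Agrp estimates were known when this contrast was chosen, so its Agrp value restates them and is no independent evidence. The knockout effect minus the sponge effect was -0.81 ± 0.25 on the log2 scale for Agrp (95% interval -1.42 to -0.21), with a limma p of 0.0164 before adjustment and an adjusted p of 0.922. For Npy it was -0.66 ± 0.43 (-1.71 to 0.38) and for Otp -0.95 ± 0.66 (-2.53 to 0.63), each with a limma adjusted p of 0.922. Of 13025 genes tested, 2 were called (0.0154%) and 648 had an unadjusted p under 0.05 (4.98%), Agrp among them. With any 1 library left out the difference lay between -0.97 and -0.66 for Agrp, between -1.08 and -0.24 for Npy and between -1.51 and -0.39 for Otp. The Npy value was -1.08 without knockout replicate 1 and -0.24 without knockout replicate 2. Without wild type female replicate 2 the difference was -0.90 for Agrp, -0.82 for Npy and -0.39 for Otp, and without replicate 4 it was -1.51 for Otp.

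Between the sexes, Agrp and Npy were lower in the wild type females and Otp overlapped. These are the same wild type libraries as above: Agrp at 20.0 and 17.5 FPKM in females against 21.7 and 20.3 FPKM in males, and Npy at 75.1 and 59.9 FPKM in females against 83.1 and 78.4 FPKM in males. Otp at 6.52 and 15.4 FPKM in females lay on both sides of the 13.2 and 6.97 FPKM in males. The log2 fold change in females was -0.16 ± 0.17 for Agrp (95% interval -0.63 to 0.30), -0.26 ± 0.20 for Npy (-0.82 to 0.29) and 0.06 ± 0.51 for Otp (-1.32 to 1.44). The limma adjusted p was 0.925 for Agrp, 0.920 for Npy and 0.991 for Otp. None of the 3 was among the 9 genes called of 13114 (0.0686%) or among the 604 with an unadjusted p under 0.05 (4.61%). Both female libraries were below both male libraries for 10.9% of all genes and above for 24.1%. Without wild type female replicate 2 the log2 fold change was -0.25 for Agrp, -0.42 for Npy and 0.62 for Otp. Without replicate 4 it was -0.07 for Agrp, -0.10 for Npy and -0.50 for Otp. The 4 choroid plexus genes tested were all higher on average in wild type females, 2 of them in both libraries; their part in the Agrp and Npy values was not tested.

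Agrp and Npy are made together by AgRP neurons, while Npy is also made by other neurons. The ratio of their gene values was taken within each library. Agrp is there divided by 1013 bases and not by the 734 of Agrp-002. The ratios are therefore larger than isoform FPKM would give. Npy stood at 2.63 and 2.74 times the level of Agrp in the sponge libraries, against 3.76 and 3.43 times in wild type females. It stood at 4.05 and 2.61 times in the knockout libraries, against 3.82 and 3.85 times in wild type males. The sponge libraries were thus both below the wild type females, and the knockout libraries lay on both sides of the wild type males. The difference in the log2 ratio was -0.42 for the sponge comparison (p = 0.333, two-sided exact permutation test, the smallest p that 2 against 2 libraries allow) and -0.24 for the knockout comparison (p = 1, exact permutation test). After adjustment over the 9 ratio tests made, every p was 1. The ratio of Otp to Agrp was 0.221 and 0.417 in the knockout libraries against 0.609 and 0.343 in wild type males, and 0.562 and 0.317 in the sponge libraries against 0.327 and 0.878 in wild type females, so the groups overlapped in both comparisons.

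**Figure D3:**
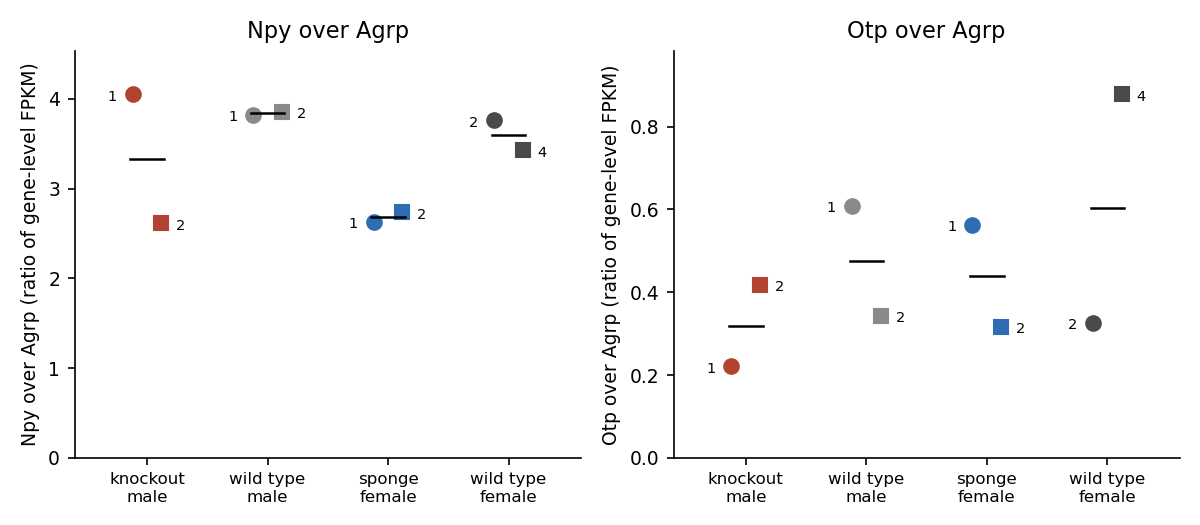
Ratio of Npy FPKM to Agrp FPKM and of Otp FPKM to Agrp FPKM (linear axes from 0) in each library, for knockout males, wild type males, sponge females and wild type females. Points are libraries and short lines are group means; the Npy to Agrp ratio of both sponge libraries (2.63 and 2.74) is under that of both wild type female libraries (3.76 and 3.43).

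Across the 8 libraries Agrp and Npy had a Pearson correlation of 0.68 (exact permutation p = 0.0741, adjusted over 3 gene pairs 0.222) and a Spearman correlation of 0.50 (exact permutation p = 0.216, adjusted 0.324). Without the libraries with the lowest and the highest Agrp, knockout replicate 2 and sponge replicate 2, the Pearson value was 0.24, so the relation rests on those libraries. Otp had a Pearson correlation of 0.37 with Agrp (exact permutation p = 0.361) and of 0.11 with Npy (exact permutation p = 0.808). The Spearman values were 0.52 for Otp with Agrp (exact permutation p = 0.197) and 0.21 for Otp with Npy (exact permutation p = 0.619). Taken as deviations from the group means, as a description with no test, the Pearson values were 0.86 for Agrp with Npy, -0.58 for Agrp with Otp and -0.61 for Npy with Otp. Between the libraries of a group, Otp ran opposite to both other genes in knockout males, sponge females and wild type females. In wild type males it ran the same way as both, and each group gives a single difference. Over all libraries the Pearson values of Otp with the other genes were positive. Each sex has 4 libraries, too few for a value of its own.

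Agrp is the gene among the 3 whose isoforms the files split, and the split is found in a single library. The transcript tables list Agrp-001, Agrp-002 and Agrp-003 for the sponge comparison but Agrp-002 alone for the other comparisons. The isoform Agrp-002 was at 12.4 and 39.1 FPKM in the sponge libraries, against 27.5 and 24.1 FPKM in wild type females. It was at 23.5 and 20.2 FPKM in the knockout libraries, against 30.0 and 28.1 FPKM in wild type males. Agrp-001 was at 13.8 FPKM and Agrp-003 at 7.15 FPKM in sponge replicate 1, and both were listed at 0 in sponge replicate 2 and in both wild type female libraries. Sponge replicate 1 thus had the lowest Agrp-002 value of all libraries while its gene value of 22.7 FPKM was the second highest.

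The 2 isoforms Agrp-001 and Agrp-002 encode the same protein and share 578 bases, which include all coding exons. In the GENCODE M21 annotation Agrp-001 is 661 bases long in 5 exons and lies from 105566698 to 105568298 on chromosome 8. Agrp-002 is 734 bases long in 6 exons and starts 69.1 kb farther upstream, at 105637393, so that it defines the span of the gene as listed. Only 83 bases belong to Agrp-001 alone in this pair and 156 to Agrp-002 alone. Of those 156 bases, 114 also lie in exons of Gm5914, a long noncoding RNA gene on the same strand, and of Ctcf on the opposite strand. Agrp-003, 674 bases long in 5 exons, has a coding sequence of 354 bases where the other isoforms have 393. Multiplied by length, Agrp-001 and Agrp-002 received equal values in sponge replicate 1, each 39.5% of the gene, and Agrp-003 the remaining 20.9%.

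Each Agrp and Npy gene value equalled the sum of isoform FPKM times isoform length over the length of all exons joined (1013 bases for Agrp and 566 for Npy), to 100% in each of the 8 libraries. For Otp, whose single listed isoform Otp-001 is 2656 bases long, it accounted for 98.9% to 100% of the gene value. Summed over isoforms without that weighting, Agrp was at 33.3 and 39.1 FPKM in the sponge libraries and 27.5 and 24.1 FPKM in wild type females, again without overlap. On the log2 scale the sponge difference was 1.94 ± 1.36 for Agrp-001, -0.21 ± 0.57 for Agrp-002 and 1.51 ± 1.08 for Agrp-003, with limma adjusted p of 0.982, 1 and 0.982. The knockout difference was -0.40 ± 0.22 for Agrp-002, -0.64 ± 0.34 for Npy-001 and -0.88 ± 0.42 for Otp-001, each with a limma adjusted p of 0.853. None of the isoforms was called, against 2 of 22134 transcripts (0.00904%) in the knockout comparison and 0% in the other comparisons.

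**Figure D4:**
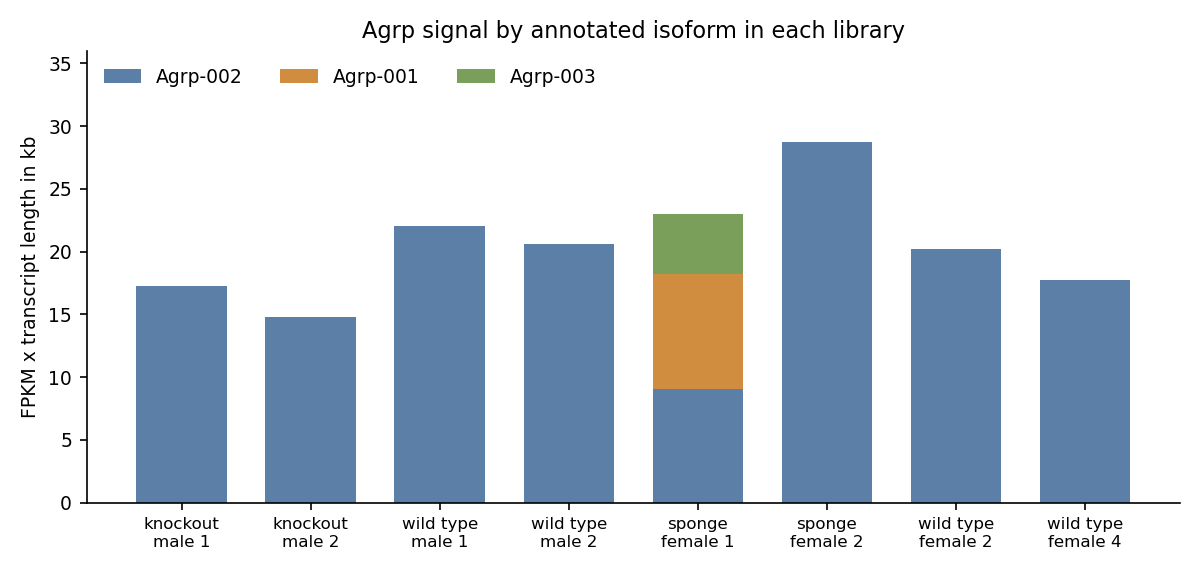
FPKM times transcript length in kilobases (vertical axis, from 0) of the isoforms Agrp-001, Agrp-002 and Agrp-003, stacked in a bar for each of the 8 libraries. Agrp-001 (39.5% of the bar) and Agrp-003 (20.9%) are above 0 in sponge replicate 1 only; for the male libraries the tables list Agrp-002 alone.

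The level of Otp followed a pattern shared by many genes. Among 11526 genes with a mean of at least 1 FPKM, the closest to Otp over the 8 libraries on log2(FPKM + 1) were Dlg5 (Pearson r = 0.99), Pdia3 (0.99), Ptprn (0.98), Boc (0.98) and Scap (0.98). Pdia3 encodes a protein folding enzyme of the endoplasmic reticulum, Ptprn a protein of dense-core vesicles and Scap the escort of the sterol-sensing transcription factors. A correlation of at least 0.9 with Otp was reached by 171 genes (1.48%), against 11 genes for Npy and 2 for Agrp. Otp was highest in the first wild type male library (13.2 FPKM), the first sponge library (12.8 FPKM) and the fourth wild type female library (15.4 FPKM). The first principal component of all genes, which held 19.7% of the variance, was positive in the same 3 libraries (0.62, 0.30 and 0.33) and negative in the other 5 (-0.52 to -0.11). The sign of a component is arbitrary and was set here to rise with Otp, which is itself among the genes used. The 171 genes had a median transcript GC content of 57.3% and a median length of 4309.5 bases, against 50.3% and 3316 bases over all ranked genes; the Otp transcript itself has 58.2% GC. Points of these correlations share library, depth and base composition, and the part of composition in the Otp values was not tested.

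**Figure D5:**
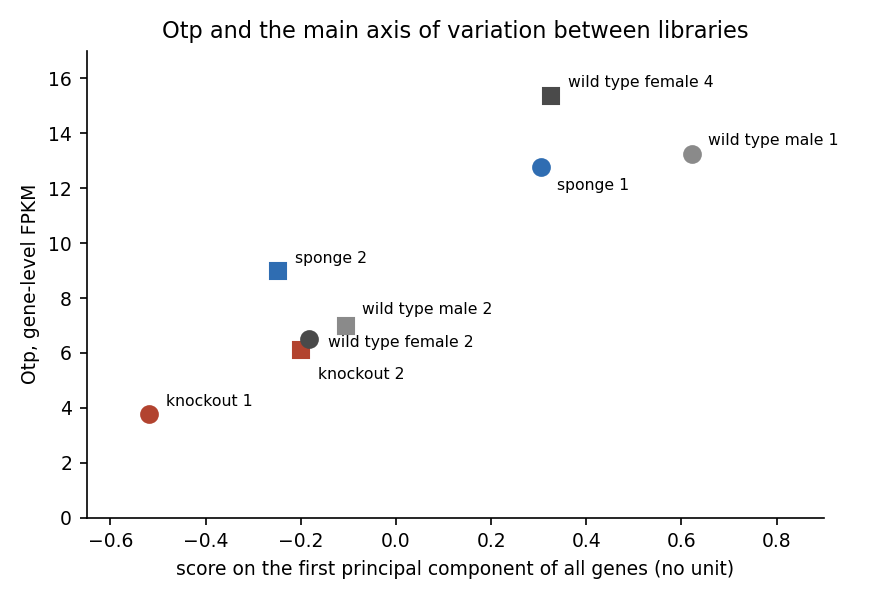
Otp in FPKM (vertical axis, from 0) against the score of each library on the first principal component of all genes (horizontal axis, no unit), with libraries marked by group. The 3 libraries with positive scores have the highest Otp values (13.2, 12.8 and 15.4 FPKM). The sign of the scores was set to rise with Otp.

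The genes closest to Agrp were Sipa1l2 (Pearson r = 0.95), Sel1l3 (0.90), Saraf (0.90), Pcbp4 (0.89) and Zfp119a (0.87). Those closest to Npy were Faap24 (0.95), Ccdc97 (0.95), Trh (0.93), Pccb (0.92) and Mad2l2 (0.92). Saraf encodes a regulator of calcium entry and Trh the precursor of thyrotropin-releasing hormone. Of the 11526 genes, Npy ranked 185th in likeness to Agrp and Otp 1419th, and Agrp ranked 313th in likeness to Npy.

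Genes expressed together with Agrp in AgRP neurons were read as a list of 12 (Corin, Acvr1c, Ghsr, Npy2r, Bsx, Lepr, Insr, Foxo1, Slc32a1, Gad1, Gad2 and Sst). None was called in any comparison. In knockout males 8 of the 12 had a negative log2 fold change, against 46.1% of all genes, and the median was -0.19 against 0.03 over all genes. In both libraries 5 of the 12 lay below (16% of all genes) and 2 above (22.5%). Wild type females against the same males also had 8 of the 12 negative, where 40.6% of all genes were negative. The median there was -0.09 against 0.06 over all genes, with 1 below in both libraries (10.9% of all genes) and 3 above (24.1%). In sponge females 4 were negative, against 56% of all genes, with a median of 0.25 against -0.03. In both libraries 5 lay above (12.1% of all genes) and 1 below (18.8%). Lepr, the receptor through which leptin quiets these neurons, was at 2.05 and 2.21 FPKM in the knockout libraries, against 1.19 and 1.26 FPKM in wild type males (log2 fold change 0.49 ± 0.18, limma adjusted p = 0.792). Wild type females, at 2.02 and 1.87 FPKM, also lay above those males (0.40 ± 0.16). Gad1, which makes the GABA they release, was at 27.6 and 27.2 FPKM in the knockout libraries, against 32.6 and 30.9 FPKM in wild type males. In the sponge libraries Gad1 was at 36.8 and 37.2 FPKM, against 25.8 and 35.6 FPKM in wild type females. Gad1 thus lay on the same side of its wild type groups as Agrp in both comparisons, with limma adjusted p of 0.797 and 1. The other GABA genes of the list, Slc32a1 (log2 fold change 1.11 ± 1.15) and Gad2 (-0.17 ± 0.66), overlapped between the groups in the knockout comparison. In sponge females Slc32a1 lay above (2.15 ± 0.82) and Gad2 overlapped (0.47 ± 0.36). Ghsr, the ghrelin receptor, overlapped in knockout males at 2.06 and 0.384 FPKM, against 0.448 and 2.66 FPKM in wild type males.

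Of the receptors and cofactors for the 2 peptides, 11 genes were listed, 9 were tested in the knockout comparison and 8 in the sponge comparison, and none was called. In knockout males 5 of 9 were negative with a median of -0.01, against 46.1% and 0.03 over all genes. In sponge females 6 of 8 were negative with a median of -0.40, against 56% and -0.03 over all genes. Mc4r, the melanocortin receptor that agouti-related peptide blocks, was at 1.04 and 0 FPKM in the knockout libraries, against 2.58 and 1.95 FPKM in wild type males (-1.18 ± 0.40, limma adjusted p = 0.792). It was at 1.00 and 0 FPKM in the sponge libraries, against at least 1.21 FPKM in both wild type female libraries (-0.73 ± 0.39, limma adjusted p = 1). Mc3r was listed at 0 in every library in which it appears except the first wild type male library (3.58 FPKM). Sdc3, a syndecan that presents agouti-related peptide to its receptor, was at 8.14 and 6.82 FPKM in the sponge libraries, against 30.8 and 43.8 FPKM in wild type females (-2.16 ± 0.23, limma adjusted p = 0.194). In the males Sdc3 overlapped between the groups, at 7.67 and 34.2 FPKM in knockout libraries and 12.5 and 34.0 FPKM in wild type libraries. Among the neuropeptide Y receptors, Npy1r was at 5.85 and 6.39 FPKM in the knockout libraries, against 1.84 and 4.92 FPKM in wild type males (0.80 ± 0.40, limma adjusted p = 0.792). Npy5r overlapped in both comparisons, and Npy2r, the receptor on the neurons' own terminals, ranged from 0.0234 to 7.89 FPKM with the extremes in knockout replicate 2 and wild type male replicate 1.

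The 10 genes of peptide processing and release had 4 negative values in knockout males (median 0.11) and 7 in sponge females (median -0.04), and none was called. Over all genes 46.1% were negative in knockout males (median 0.03) and 56% in sponge females (median -0.03). Scg5, the chaperone of the convertase that Pcsk2 encodes, was at 159 and 134 FPKM in the knockout libraries, against 95.7 and 71.9 FPKM in wild type males (0.81 ± 0.24, limma adjusted p = 0.792). Pcsk2 itself was at 22.9 and 26.6 FPKM in the knockout libraries and 25.1 and 25.3 FPKM in wild type males, without a difference beyond the spread. Cpe, the carboxypeptidase that trims the cut peptides, was the most abundant gene of the list and was at 349 and 404 FPKM in the knockout libraries, against 313 and 340 FPKM in wild type males.

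Of 12 tested transcription factor genes that act around Otp in the hypothalamus, 9 were negative in knockout males, against 46.1% of all genes, and 5 had both libraries below, against 16%. Their median was -0.33, against 0.03 over all genes. Bsx and Foxo1 were also in the list of genes expressed together with Agrp. Both lay below in the knockout libraries, so the counts of these lists are not independent. In sponge females 9 of the 12 were positive and 3 negative, where 56% of all genes were negative. The median was 0.14, against -0.03 over all genes. Arnt2, a partner of Sim1 in neurosecretory neurons, was at 20.7 and 14.6 FPKM in the knockout libraries, against 28.6 and 26.4 FPKM in wild type males (-0.63 ± 0.24, limma adjusted p = 0.792). Bsx, a homeodomain factor that AgRP neurons need for normal Agrp and Npy levels, was at 1.72 and 1.85 FPKM in the knockout libraries, against 2.31 and 4.54 FPKM in wild type males (-0.62 ± 0.31, limma adjusted p = 0.792). Wild type females, at 1.39 and 2.20 FPKM, also lay below those males (-0.63 ± 0.33). Isl1, a factor of the arcuate lineages, was at 5.33 and 5.06 FPKM in the sponge libraries, against 4.02 and 3.34 FPKM in wild type females (0.41 ± 0.16, limma adjusted p = 1).

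The 5 peptides of neurons that need Otp to form (Sst, Trh, Crh, Avp and Oxt) were all negative in knockout males, against 46.1% of all genes, and 3 had both libraries below, against 16%. Their median was -0.72, against 0.03 over all genes, and none was called. Sst, which lay below in both, was also counted in the list of genes expressed together with Agrp. Oxt, the oxytocin gene, was at 72.2 and 50.6 FPKM in the knockout libraries, against 133 and 115 FPKM in wild type males (-1.02 ± 0.26, limma adjusted p = 0.716). Trh was at 31.5 and 7.90 FPKM in the knockout libraries, against 60.4 and 38.0 FPKM in wild type males (-1.52 ± 0.68, limma adjusted p = 0.792). Avp, the vasopressin gene, overlapped at 227 and 60.8 FPKM in the knockout libraries, against 154 and 246 FPKM in wild type males. In sponge females 3 of the 5 were negative, against 56% of all genes. The second sponge library was the lowest for Avp (4.20 FPKM) and Oxt (9.84 FPKM) of all 8. Sst, the somatostatin gene, was at 187 and 10.2 FPKM in the sponge libraries, against 1.67 and 5.91 FPKM in wild type females (3.42 ± 1.51, limma adjusted p = 1). Oxt, Avp and Trh are made largely outside the arcuate nucleus, in the paraventricular marker list given above, and how much of that tissue a library held was not tested. In the wild type females all 5 were likewise negative against wild type males, where 40.6% of all genes were negative; those males are the same libraries.

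Of the 7 arcuate peptides outside the AgRP neurons, which include the melanocortin precursor gene Pomc, 6 were negative in knockout males (median -0.19) and 2 in sponge females (median 0.17), and none was called. The shares of all genes that were negative were 46.1% in knockout males (median 0.03) and 56% in sponge females (median -0.03). Pomc spread over 14.9 to 33.3 FPKM in the knockout libraries, against 27.9 to 60.9 FPKM in wild type males, and over 12.4 to 90.4 FPKM in the sponge libraries, against 37.4 to 71.7 FPKM in wild type females. Pomc thus varied more inside each group than Agrp did. Pdyn, the prodynorphin gene, was at 20.7 and 18.3 FPKM in the knockout libraries, against 21.9 and 22.9 FPKM in wild type males (-0.19 ± 0.18, limma adjusted p = 0.808).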

How the data were processed

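Poly(A) RNA of the arcuate nucleus was captured on oligo(dT) beads, turned into dUTP-stranded libraries and read from both ends, per the labels' protocols. The submitters' processing notes name StringTie 1.2.3, HISAT2 2.0.4, cutadapt and FastQC, and the builds mm10 and GRCm38; their settings, strand included, are not given in the sources used here. The authors deposited FPKM per library, computed with Ballgown per the series text, together with log2 group values, fold changes (a ratio of groups) and p-values and q-values, which are quoted only where the deposited table is named. Read totals were not analysed here, so depth is unknown and no interval for counting error could be computed. Gene values of a library were the same in each table that holds it.

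From the FPKM, limma 3.58.1 (R 4.3.3) with a mean-variance trend was fitted to log2(FPKM + 1) for genes whose FPKM averaged 0.5 or more in the libraries compared, without a replicate block, two-sided, with Benjamini-Hochberg adjustment over all genes. Isoforms were treated alike over all transcripts. Permutation tests used SciPy 1.17.1, and UTRs, exons and isoform lengths came from GENCODE M21, which may differ from the annotation behind the deposited values. The labels do not say that the pools of a group came from separate litters, so p-values reflect only how these libraries vary, which may be technical. The 3 genes, the gene lists and the tests were chosen with earlier results of these data known. Genes named besides them were the 5 most alike per gene, and of each list the main receptors, the gene of highest mean FPKM and up to 2 members of smallest p in each manipulation; Mc3r was absent from the sponge table, and Npy4r, Dpp4 and Lhx6 were not tested. Gad2 and Tac2, outside that rule, were named after their values were seen. The alternatives were another pseudocount, filter or scaling, a replicate block, a fit over all 8 libraries and leaving out each library.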

Additional observations from a re-analysis of the deposited data

Results flagged for a closer look

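The isoform Agrp-001 was at 13.8 FPKM and the isoform Agrp-003 at 7.15 FPKM in sponge female replicate 1, while both were listed at 0 in sponge replicate 2 and in both wild type female libraries. They stand out because they appear above the level of the wild type libraries in isoform values, outside the gene-level comparison, and in 1 library of 2. Agrp-001 differs from Agrp-002, the isoform found in the other libraries, in the noncoding exons at its start (5 exons in all against 6) and not in its coding exons.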

How the results depend on the processing

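No setting brought Agrp, Npy or Otp past the threshold: of 144 alternatives for 12 gene results, 138 kept the direction and 6 turned it. The turned ones came only from leaving out a library, where the sponge difference ranged from -0.16 to 0.21 for Npy (-0.16 without sponge replicate 2, -0.14 without wild type female replicate 4) and from -0.48 to 0.64 for Otp (-0.15 without sponge replicate 1, -0.48 without wild type female replicate 2), and the sex difference of Otp from -0.50 to 0.62 (-0.36 without wild type male replicate 2, -0.50 without wild type female replicate 4). The 8 genes called in the knockout comparison became 2 with a pseudocount of 0.1, 3 with a minimum mean of 2 FPKM and 0 after quantile scaling (701 at an unadjusted limma p under 0.05). With a replicate block 0 were called (582 unadjusted). The block had little to act on, since deviations of same-numbered libraries correlated at 0.00122 and only 2 pairs exist; the other comparisons share a single number, so no paired analysis was possible there. Fitted over all 8 libraries, 2 genes were called for the sponge in place of 14 and 3 for sex in place of 9. With any 1 library left out, 0 to 0 genes were called in each comparison, with 682 to 1134 unadjusted for the knockout, 691 to 708 for the sponge and 636 to 891 for sex; the cause was not tested beyond the smaller number of libraries.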

Other observations

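Some genes expressed together with Agrp differed many-fold between libraries of the same group. Slc32a1, the vesicular GABA transporter gene, was at 13.7 and 13.9 FPKM in the knockout libraries and 21.4 and 1.09 FPKM in wild type males. Its values were 15.2 and 20.2 FPKM in the sponge libraries and 0.894 and 8.17 FPKM in wild type females. Gad2, which encodes the other GABA-making enzyme, was at 34.5 and 15.1 FPKM in the knockout libraries and 45.1 and 14.8 FPKM in wild type males. Gad1 over the same 8 libraries stayed between 25.8 and 37.2 FPKM.

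Tac2, the neurokinin B gene of the kisspeptin neurons, was at 18.5 and 21.5 FPKM in wild type females and 9.60 and 6.07 FPKM in wild type males (log2 fold change 1.27 ± 0.26, limma adjusted p = 0.574). Kiss1 was at 3.24 and 4.23 FPKM in wild type females and 2.75 and 0.515 FPKM in wild type males (0.98 ± 0.49, limma adjusted p = 0.920). Both female libraries were above both male libraries for each gene, as for 24.1% of all genes, and neither passed the test. Pdyn, the third peptide gene of those neurons, overlapped at 21.0 and 22.1 FPKM in wild type females and 21.9 and 22.9 FPKM in wild type males (-0.05 ± 0.16, limma adjusted p = 0.974).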
